A study of Mus musculus with 31 samples.

Results

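The comparison described here set CD11b+ microglia of female APP/PS1 mice homozygous for the PLCγ2-P522R knock-in (A+/Pki/ki) against CD11b+ microglia of female mice with neither the transgenes nor the knock-in (A-/Pwt/wt). The members were the libraries of the female CD11b+ count table tagged for these 2 genotypes, 4 A+/Pki/ki mice and 7 A-/Pwt/wt mice, which makes 11 of the 31 samples of the series. All mice were 13 months old. APP/PS1 mice coexpress a chimeric mouse and human amyloid precursor protein with the Swedish mutation together with a further human transgene, both driven by the mouse prion protein promoter, and they deposit β-amyloid in the brain. The knock-in had been made with CRISPR/Cas9 in the endogenous Plcg2 gene, and all groups were on the C57BL/6J background. For the cells, brains of perfused mice were dissociated with enzymes and CD11b+ cells were taken with magnetic beads, so each library is 1 mouse and a mixture of cells. CD11b is carried by microglia and also by border macrophages, monocytes and neutrophils.

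The APP/PS1 transgenes, the knock-in and the batch tag in the column names changed together. The 4 A+/Pki/ki libraries carried the tag b2 and the 7 A-/Pwt/wt libraries the tag b3, and what the tag stands for is not given in the sources used here. Effects of the transgenes, of the knock-in and of whatever the tag marks therefore cannot be told apart in this comparison. Another group, A+/Pwt/wt (4 APP/PS1 mice with wild-type Plcg2, tag b2), was used to place each level beside that of transgenic mice without the knock-in. Whole cortex libraries from other mice of the same 2 genotypes, 4 A+/Pki/ki and 1 A-/Pwt/wt, were used for levels only.

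Total counts per library (in 1e6 reads) were 19.0 to 25.1 in A+/Pki/ki and 19.5 to 21.6 in A-/Pwt/wt. Libraries stood apart in 3 ways. First, the labels of mouse 236 conflict: its CD11b+ library is labelled A-/Pwt/wt and its cortex library A+/Pwt/wt. Its level of Cst7, among the largest differences below, was 24.1 CPM (counts per 1e6 counts of the library, with TMM scaling). The other A-/Pwt/wt mice were at 9.34 to 31.0 CPM and the A+/Pwt/wt mice, described above, at 533 to 804 CPM. Cst7 was picked from a comparison that included this library. Second, in the A-/Pwt/wt library of mouse 245, 1321 of the 17446 genes tested had a count of 0 (7.57%), against 24 to 153 genes in the other 10 libraries. That library also lay far from the others on the second principal component of the 1000 most variable genes (18.7% of the variance). Last, the neuron markers varied widely within both groups. Their mean log2 CPM (neuron score) was 2.91 to 6.08 in A+/Pki/ki, highest in mouse 335. It was 3.78 to 7.08 in A-/Pwt/wt, highest in mice 223 and 236. The first principal component (61.0% of the variance) ran from -51.2 in mouse 405, lowest in neuron score, to 58.4 in mouse 223, highest in it. Both groups were spread along that component. Results are given below with and without the libraries that stood apart.

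Microglia are the resident macrophages of the brain. Near β-amyloid plaques they enter a state known as disease-associated microglia (DAM), in which genes for lipid handling, lysosomal digestion and phagocytosis are raised. Stage 1 of this state is known to be reached without the lipid receptor TREM2, and stage 2 to depend on TREM2 and its adaptor TYROBP. PLCγ2 is the phospholipase that acts downstream of TREM2 and other receptors, splitting a membrane lipid into the messengers that release calcium and activate protein kinase C. P522R is a variant of this enzyme associated with a lower risk of Alzheimer's disease.

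The labels were first checked against the genes they name. Plcg2 (GRCm38 chr8:117498291-117635142) measured 199.6, 141, 240.0 and 248 CPM in A+/Pki/ki mice 244, 335, 394 and 405, and 126 to 230.4 CPM with a median of 184 in A-/Pwt/wt. The ranges overlapped (log2FC 0.23 ± 0.19 SE, adjusted p = 0.583). A level cannot show the knock-in, which exchanges an amino acid. In cortex the transgenic label was visible: App, the amyloid precursor, was at 1912 CPM in the A-/Pwt/wt library and at 3238 to 3699 CPM in the 4 A+/Pki/ki libraries. Prnp, whose promoter drives the transgenes, was at 853 CPM against 2417 to 2935 CPM there. In the CD11b+ libraries neither was called, with App at 529 to 958 CPM in A+/Pki/ki and 617 to 975 CPM in A-/Pwt/wt. Xist was present in all female libraries (194 to 901 CPM) and the Y-linked Ddx3y was at or below 0.0857 CPM. The 24 homeostatic microglial genes, such as Csf1r (3608 to 6195 CPM in A+/Pki/ki) and P2ry12, were abundant in every library. They summed to 32535 to 48667 CPM in A+/Pki/ki and 25365 to 45500.0 CPM in A-/Pwt/wt. The 14 oligodendrocyte markers summed to 8898 to 66245 CPM and 22539 to 75844 CPM in the same order. Microglial transcripts were thus present in every library, and these sums do not measure purity.

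Genes that rose outnumbered genes that fell. Of 17446 genes tested, 286 (1.64%) passed a false discovery rate of 0.05 in edgeR's quasi-likelihood test: 236 were higher in A+/Pki/ki (1.35%) and 50 were lower (0.287%). The rises were also the larger changes, with 176 above a log2 fold change (log2FC) of 1 and a median of 1.34 over the called rises. The called falls had a median of -1.07, with 32 below -1. Over all tested genes the median log2FC was -0.01. CPM ranges of the groups did not overlap for 649 genes (3.72%), of which 231 were also called, 185 higher and 46 lower. The plot of log2FC against mean level shows the named genes.

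**Figure D1:**
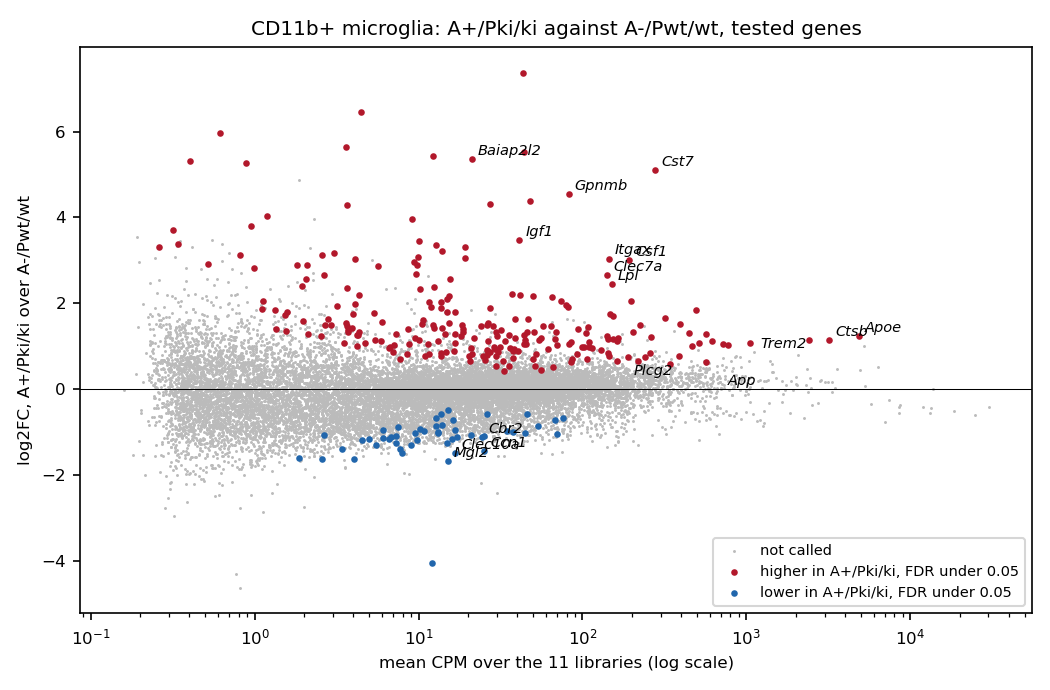
Log2FC of A+/Pki/ki over A-/Pwt/wt (y axis) against mean CPM over the 11 libraries (x axis, log scale) for the 17446 tested genes. Each point is a gene, coloured where it was called higher (236) or lower (50), and the largest called rises reach above 4 while most called falls lie near -1.

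The number of calls rested on single libraries, and that of the falls most of all. Leaving out A+/Pki/ki mouse 405 left 57 calls, all of them rises. Leaving out mouse 394 left 73 and mouse 244 left 125, with 4 falls each. Without A+/Pki/ki mouse 335, with the highest neuron score of its group, there were 1097 calls, 706 higher and 391 lower. Among the A-/Pwt/wt mice, leaving out mouse 223 gave 360 calls, 224 gave 139, 225 gave 139, 236 gave 182, 242 gave 213, 243 gave 132 and 245 gave 215. Leaving out mice 236 and 245 together gave 92 calls, 89 higher and 3 lower. Without the 3 libraries of highest neuron score there were 1182. With the neuron score as covariate there were 602, 363 higher and 239 lower. How much of these counts neuronal RNA accounts for was not tested. In 20 refits, which comprised these and the other fits tried, 56 genes were called higher each time and 0 were called lower each time. Those 56 were picked after their values were seen, and are marked below as kept in every refit.

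**Figure D2:**
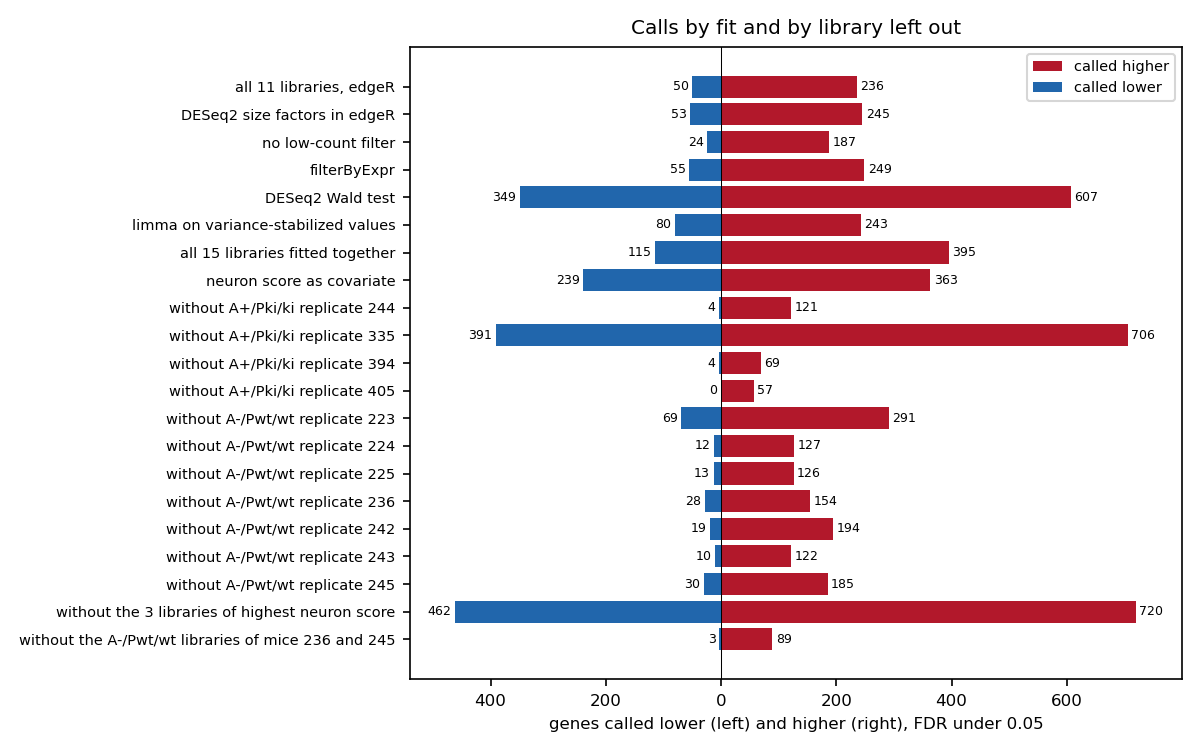
Number of genes called higher (right) and lower (left) at a false discovery rate of 0.05 in each fit, by tool, setting and library left out. With all 11 libraries the bars reach 236 and 50, against 57 and 0 without A+/Pki/ki mouse 405 and 706 and 391 without mouse 335.

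The largest rises by the rule stated in the methods were Baiap2l2, Cst7, Gpnmb, Cd300lf, Mamdc2, Dkk2, Igf1, Ctse, Egln3, Hpse, Itgax, Csf1, Ptchd1, Cd200r4 and Ch25h, and all 15 were kept in every refit. They came from many functions and lie on several chromosomes. Of the 15, 12 had an entry in the RefSeq promoter table (GRCm38.p6), covering 250 bases before to 50 after the start site. The promoters of 5 leading rises with different roles are shown, since members that move together can be compared at their start sites. Capitals mark matches on the printed strand to the PU.1 motif (GGAAGT) and the AP-1 motif (TGANTCA), both searched on both strands. Cst7 lies at chr2:150570165-150570464 on the plus strand, Gpnmb at chr6:49036268-49036567 (plus), Cd300lf at chr11:115133943-115134242 (minus), Dkk2 at chr3:132085042-132085341 (plus) and Igf1 at chr10:87860861-87861160 (plus).
Cst7: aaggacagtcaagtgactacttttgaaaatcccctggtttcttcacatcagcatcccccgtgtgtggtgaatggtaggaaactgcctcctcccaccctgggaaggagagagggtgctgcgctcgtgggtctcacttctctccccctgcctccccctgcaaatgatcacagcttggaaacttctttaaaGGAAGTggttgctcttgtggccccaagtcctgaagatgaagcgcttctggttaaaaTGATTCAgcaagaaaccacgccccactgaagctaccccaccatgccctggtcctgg
Gpnmb: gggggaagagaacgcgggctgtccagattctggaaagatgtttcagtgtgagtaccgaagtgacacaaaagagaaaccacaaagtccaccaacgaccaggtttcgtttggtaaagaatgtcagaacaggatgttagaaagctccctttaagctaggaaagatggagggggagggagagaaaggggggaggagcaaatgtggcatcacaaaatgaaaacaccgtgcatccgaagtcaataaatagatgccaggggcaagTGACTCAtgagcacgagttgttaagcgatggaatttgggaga
Cd300lf: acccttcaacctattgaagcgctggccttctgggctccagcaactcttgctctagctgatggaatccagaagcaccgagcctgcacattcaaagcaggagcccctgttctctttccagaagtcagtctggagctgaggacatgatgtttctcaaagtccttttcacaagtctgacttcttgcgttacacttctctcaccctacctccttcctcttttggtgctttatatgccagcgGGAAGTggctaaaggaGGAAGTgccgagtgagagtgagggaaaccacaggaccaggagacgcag
Dkk2: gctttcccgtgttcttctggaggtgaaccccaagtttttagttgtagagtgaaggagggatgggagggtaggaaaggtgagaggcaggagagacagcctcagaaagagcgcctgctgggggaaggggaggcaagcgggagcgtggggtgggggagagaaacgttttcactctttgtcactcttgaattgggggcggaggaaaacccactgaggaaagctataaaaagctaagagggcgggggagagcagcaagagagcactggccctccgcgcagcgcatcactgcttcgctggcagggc
Igf1: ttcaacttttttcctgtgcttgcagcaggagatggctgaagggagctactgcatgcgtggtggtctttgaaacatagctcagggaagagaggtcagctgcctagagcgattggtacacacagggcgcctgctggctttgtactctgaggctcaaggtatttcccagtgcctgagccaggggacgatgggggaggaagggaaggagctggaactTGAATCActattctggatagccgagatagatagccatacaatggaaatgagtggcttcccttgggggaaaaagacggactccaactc

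PU.1 is the lineage factor of macrophages and AP-1 a dimer of Fos and Jun family proteins induced by many stimuli. The Cst7 window held an AP-1 match 6 bases before the start site and a PU.1 match 62 before it. AP-1 matches also lay 8 bases after the start in Gpnmb and 37 before it in Igf1, while Cd300lf had PU.1 matches 14 before and 2 after its start and Dkk2 had neither. Of the 12 windows, 4 held AP-1 (Cst7, Gpnmb, Igf1 and Itgax) and 3 held PU.1 (Cst7, Cd300lf and Itgax). AP-1 matches were in 10.1% of the 158 called rises with an entry, 6.51% of the 12377 tested genes with one and 8.97% of all 27025 promoters. PU.1 matches were in 31.0%, 30.9% and 26.5%. The MITF/TFE motif TCACGTG was in 6.33% of called rises and 6.45% of tested genes, the MEF2 motif in 0.633% and 1.54%, and the interferon element GAAANNGAAA in 2.53% and 3.91%. These are counts of letters in a short window and do not show binding.

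The rises were led by genes of DAM stage 2, of which 20 of 23 members were called higher and 0 lower, against 1.35% of all tested genes called higher. The list's median log2FC was 1.77, beside -0.01 over all genes. Its mean log2 CPM was 8.07 to 8.82 in A+/Pki/ki, 5.86 to 6.72 in A-/Pwt/wt and 7.86 to 8.69 in A+/Pwt/wt, so the 2 compared groups did not overlap and the 2 transgenic groups did. The count was lowest without mouse 405, at 13, and 18 and 17 without A-/Pwt/wt mice 236 and 245. The list was drawn up from earlier work on amyloid models, and Trem2, Timp2 and Cd63 were its members that did not pass with edgeR. DESeq2 called all 23 members higher, beside 607 genes called higher in all. Like all lists here, the stage 2 list was chosen with earlier results of these data known, so its count is a description and not independent support.

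Cst7 (cystatin F, an inhibitor of lysosomal cysteine cathepsins; chr2:150570415-150578944) had the largest log2FC of the stage 2 genes. It measured 578, 549, 857 and 918 CPM in A+/Pki/ki mice 244, 335, 394 and 405, and 9.34 to 31 CPM with a median of 24.1 in A-/Pwt/wt. Every A+/Pki/ki library lay more than 10-fold above every A-/Pwt/wt library (log2FC 5.10 ± 0.32 SE, adjusted p = 9.65e-06). In these bulk samples, more cells of a state and more RNA per cell cannot be told apart. Gpnmb, a glycoprotein of lysosomal membranes, measured 73.8, 140.3, 196 and 432 CPM in the same order, against 3.93 to 23 CPM with a median of 5.35 (log2FC 4.54 ± 0.56 SE, adjusted p = 0.00248). It was the most uneven of these genes within A+/Pki/ki, highest in mouse 405 and lowest in mouse 244, without overlap with A-/Pwt/wt. Igf1, a growth factor, measured 80.6, 48.5, 128 and 132 CPM against 5.93 to 11.3 CPM with a median of 8.15 (log2FC 3.47 ± 0.26 SE, adjusted p = 4.52e-05). Mouse 335 was lowest of its group, at over 4 times the highest A-/Pwt/wt library.

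Surface proteins and secreted signals of stage 2 were also higher. Itgax (CD11c, an integrin subunit) measured 344, 244, 266 and 459.5 CPM in A+/Pki/ki and 22.7 to 60.9 CPM with a median of 36.3 in A-/Pwt/wt (log2FC 3.04 ± 0.28 SE, adjusted p = 0.000278). Csf1, a ligand of the receptor CSF1R on which microglia depend, measured 301, 197, 778 and 462 CPM against 41.9 to 67.4 CPM with a median of 54 (log2FC 3.01 ± 0.30 SE, adjusted p = 0.000425). Its spread within A+/Pki/ki was wide, with mouse 394 highest and mouse 335 lowest, and no library overlapped the other group. Clec7a (Dectin-1, a pattern receptor) measured 296, 229, 341 and 351 CPM against 17 to 66 CPM with a median of 49.8 (log2FC 2.65 ± 0.29 SE, adjusted p = 0.000825). Axl, a receptor for dying cells, had a log2FC of 1.34 ± 0.18 and Serpine2, a protease inhibitor, of 1.29 ± 0.17. All 5 were kept in every refit, as were Lpl, Ank, Cadm1, Fabp5 and Ccl6.

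The plot of the 15 largest rises shows these levels beside those of A+/Pwt/wt mice.

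**Figure D3:**
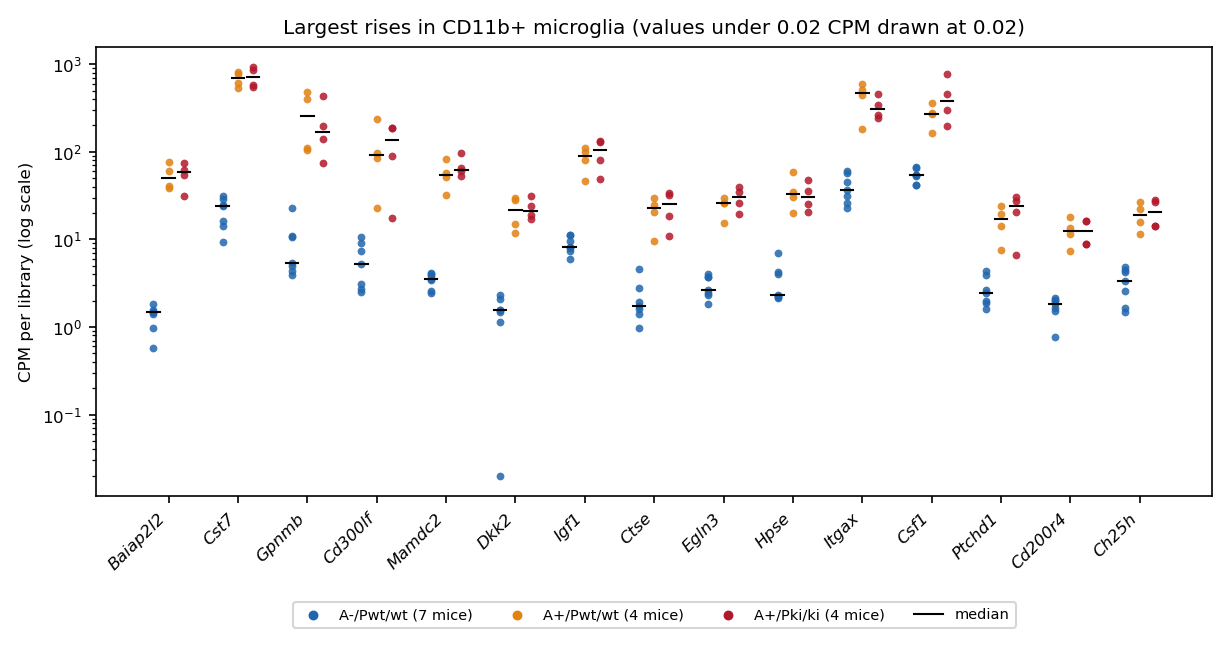
CPM per library (y axis, log scale) of the 15 largest rises in A+/Pki/ki, with 1 point per mouse and a bar at the group median, for A-/Pwt/wt (7 mice), A+/Pwt/wt (4) and A+/Pki/ki (4). A+/Pki/ki points lie above all A-/Pwt/wt points for every gene shown, for Cst7 at 549 to 918 CPM against 9.34 to 31.0 CPM, and A+/Pwt/wt points overlap the A+/Pki/ki range. Values under 0.02 CPM are drawn at 0.02.

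Rises outside the stage 2 list were of the same size. Baiap2l2, a membrane-bending protein that binds actin, had 54.3, 30.9, 75.3 and 61.9 CPM in A+/Pki/ki and 0.58 to 1.82 CPM with a median of 1.5 in A-/Pwt/wt (log2FC 5.36 ± 0.29 SE, adjusted p = 2.83e-06). Mamdc2, a secreted matrix protein, had 59.9, 53.5, 65.5 and 96 CPM against 2.45 to 4.1 CPM with a median of 3.57, and the smallest adjusted p of the comparison (log2FC 4.32 ± 0.20 SE, adjusted p = 7.07e-07). Its values were close within each group. Cd300lf, an immunoreceptor that binds lipids, had 17.6, 90.0, 189 and 186 CPM against 2.51 to 10.6 CPM with a median of 5.3 (log2FC 4.37 ± 0.58 SE, adjusted p = 0.00311). Mouse 244 stood well below the other 3 mice of its group, yet above every A-/Pwt/wt library. Dkk2, a secreted modulator of Wnt signalling, had 16.9, 18.8, 23.8 and 31.2 CPM and was 0 to 2.31 CPM in A-/Pwt/wt, where the 0 was mouse 245 (log2FC 3.96 ± 0.59 SE, adjusted p = 0.00669). Without that library Dkk2 was still called, at log2FC 3.73.

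Other genes kept in every refit were picked after their values were seen. Trpm1, a cation channel known from retina and melanocytes, was at 7.26 to 16.5 CPM in A+/Pki/ki and 0 to 0.364 CPM in A-/Pwt/wt. Dcstamp, a membrane protein needed for the fusion of osteoclasts and macrophages, was at 4.91 to 14.7 CPM and 0 to 0.385 CPM. Both were thus near the detection limit in A-/Pwt/wt and present in all 4 A+/Pki/ki mice. Hcar2, a receptor for hydroxybutyrate and niacin, had a log2FC of 2.21 ± 0.34, Rab7b, a small GTPase of late endosomes, of 2.57 ± 0.27, Plaur, the urokinase receptor, of 1.55 ± 0.22, and Lgals3bp, a secreted ligand of galectins, of 1.51 ± 0.21.

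Among the 7 stage 1 genes, 3 (42.9%, beside 1.35% of all tested genes) were called higher: Apoe, Ctsb and Tyrobp. The list's median log2FC was 1.00. Apoe, the main lipid carrier of the brain, measured 6578, 7009, 8502 and 8769 CPM in A+/Pki/ki and 2400.3 to 4424 CPM with a median of 3191 in A-/Pwt/wt, without overlap (log2FC 1.25 ± 0.21 SE, adjusted p = 0.0136). Its call was lost without A+/Pki/ki mouse 394 or 405. The stage 1 count was 0 without mouse 394 or 405, 1 without mouse 244, 224, 225, 236, 243 or 245, and 5 without mouse 335 or 223. Of the other members, Ctsd (a lysosomal aspartic protease) was at 6286 to 9247 CPM against 1737 to 4796 CPM, with a log2FC of 1.00 ± 0.27 that did not pass (adjusted p = 0.0909).

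TREM2 signalling, in which PLCγ2 acts, showed 1 call in 24 tested members (4.17%, beside 1.35% of all tested genes), Tyrobp. The list median was 0.17. Tyrobp, the adaptor that carries the TREM2 signal, measured 1043, 899, 1315 and 1338 CPM against 305 to 725 CPM with a median of 598 (log2FC 1.03 ± 0.22 SE, adjusted p = 0.0396), and its call was lost on leaving out any 1 of mice 244, 394, 405, 224, 225, 236, 242, 243 and 245. Trem2 itself measured 1408, 1171, 1836 and 1821 CPM against 485 to 1069 CPM with a median of 879.7. The ranges did not overlap, and Trem2 did not pass with edgeR (log2FC 0.87 ± 0.22 SE, adjusted p = 0.0709). DESeq2 called 2 of the 24 members higher, Trem2 among them, beside 607 called higher over all genes. Of the 14 phospholipase C isoforms tested, Plcg2 included, 0 were called (median -0.46), and likewise 0 of 36 calcium handling genes (median -0.06). At an unadjusted p under 0.05, 4 of the 14 phospholipase C isoforms and 4 of the 36 calcium handling genes passed. Over all genes 2646 of 17446 did, and DESeq2 called 0 in either list.

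Genes that carry, hydrolyse and store cholesterol and lipoproteins were the next group, with 7 of 24 called higher (29.2%, beside 1.35% of all tested genes) and 1 lower (4.17%, beside 0.287%; median 0.44). Lpl, the lipase of lipoprotein particles, measured 300.5, 208, 396 and 352 CPM against 18.8 to 85.2 CPM with a median of 61.3 (log2FC 2.45 ± 0.32 SE, adjusted p = 0.00287). Nceh1, a hydrolase of cholesterol esters, measured 70.9, 48, 79.2 and 73 CPM against 17.6 to 24 CPM with a median of 22.7 (log2FC 1.64 ± 0.14 SE, adjusted p = 0.000124). Ch25h, which makes 25-hydroxycholesterol, measured 14.3, 14.2, 26.9 and 28.1 CPM against 1.48 to 4.9 CPM with a median of 3.37 (log2FC 2.68 ± 0.34 SE, adjusted p = 0.00287). These 3 did not overlap between groups and were kept in every refit. Exons of Ch25h overlap those of the predicted gene Gm26902 and the counting ignored strand, so reads of Ch25h and Gm26902 cannot be told apart.

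Other changes in that list were smaller or in scarce transcripts. Soat1, which esterifies cholesterol, had a log2FC of 0.82 ± 0.17 (adjusted p = 0.0374). Apoc4 was at 0.307 to 0.854 CPM in A+/Pki/ki and 0 to 0.129 CPM in A-/Pwt/wt, which is a few reads. The fall was Cd36, a scavenger receptor and fatty acid transporter, at 7.45, 7.78, 4.84 and 5.77 CPM against 9.6 to 13.9 CPM with a median of 12 (log2FC -0.93 ± 0.17 SE, adjusted p = 0.0229). Its call was lost without mouse 244, 394, 405, 224 or 225. The list had 3 calls without mouse 394 or 405. Of 23 cholesterol synthesis genes 1 was called (4.35%, beside 1.35% of all tested genes called higher). It was Dhcr7 (log2FC 0.65 ± 0.11, lost without mouse 244, 394 or 405). Of 42 fatty acid metabolism genes 1 (2.38%) was called, Fabp5, a fatty acid carrier. Fabp5 was at 58.5, 82.5, 78.4 and 111 CPM against 8.17 to 30.9 CPM with a median of 15.2 (log2FC 2.19 ± 0.34 SE, adjusted p = 0.00958).

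Lysosomal genes were the next largest group of rises, mostly with smaller changes. Of 17 cathepsins and cystatins 5 (29.4%) were called higher (Cst7, Ctse, Ctsb, Ctsz and Ctsl; median 0.62), and of 37 lysosomal hydrolases and proton pump subunits 10 (27.0%) were, beside 1.35% of all tested genes (median 0.52). Ctse, an aspartic protease, rose most, from 0.966 to 4.58 CPM with a median of 1.73 in A-/Pwt/wt to 18.5, 11, 33.6 and 32.2 CPM in A+/Pki/ki (log2FC 3.46 ± 0.41 SE, adjusted p = 0.00158). Ctsb, an abundant cysteine protease, measured 4513, 3398, 5922 and 5977 CPM against 1332 to 2669 CPM with a median of 2266 (log2FC 1.16 ± 0.23 SE, adjusted p = 0.0296). Cst7 and Ctse were kept in every refit, whereas the list's count was 2 without mouse 244, 394 or 405, 3 without mouse 224, 225, 236, 243 or 245, and 8 without mouse 335.

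Within the hydrolases, Gla (α-galactosidase) measured 13.2, 14.7, 21.6 and 21.5 CPM against 5.35 to 7.15 CPM with a median of 6.19 and was kept in every refit (log2FC 1.51 ± 0.17 SE, adjusted p = 0.000918). Gusb (β-glucuronidase) had a log2FC of 1.22 ± 0.19 and lost its call without mouse 405. Atp6v0d2, a proton pump subunit of osteoclasts and macrophages, was at 3.86 to 15.1 CPM against 0 to 1.14 CPM (log2FC 4.29 ± 0.74), with the 0 in mouse 245, and lost its call without mouse 394 or 405. Arsb, which removes sulfate from glycosaminoglycans, was uneven: 419, 278, 1782 and 1183 CPM in A+/Pki/ki against 228 to 293 CPM with a median of 251 (log2FC 1.85 ± 0.38 SE, adjusted p = 0.0357). Mice 394 and 405 were several times above all A-/Pwt/wt libraries, mouse 244 was above them, and mouse 335 lay within their range. The count of 10 fell to 1 without mouse 405, 2 without mouse 394, 6 without mouse 244, 225 or 236, and 5 without mouse 224, 243 or 245, and rose to 20 without mouse 335. Hpse, the heparanase that trims heparan sulfate, was not in the list and measured 20.4, 25.7, 35.4 and 47.5 CPM against 2.14 to 7.06 CPM with a median of 2.32 (log2FC 3.21 ± 0.36 SE, adjusted p = 0.000968).

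Inflammatory genes held a few rises. Of 34 type I interferon response genes 3 (8.82%, beside 1.35% of all tested genes) were called higher, Ifit2, Ifi27l2a and Ifi204 (log2FC 1.25, 1.47 and 1.13), with a list median of 0.44 and 31 members above 0. That count was 0 without mouse 244, 394, 405, 224, 243 or 245, 1 without mouse 225 or 236, and 10 without mouse 335. For Ifit2, an antiviral protein that binds RNA, A+/Pki/ki mouse 335 (27.7 CPM) lay within the A-/Pwt/wt range of 13.7 to 28.3 CPM. Of 18 chemokines 2 (11.1%) were called higher. Ccl6 measured 281, 200.02, 311 and 281 CPM against 39.8 to 105 CPM with a median of 79.8 (log2FC 1.77 ± 0.22 SE, adjusted p = 0.00235), and was kept in every refit. Ccl3, a chemokine that attracts monocytes and macrophages, measured 454, 361, 811 and 630.0 CPM against 90.2 to 271 CPM with a median of 187 (log2FC 1.67 ± 0.30 SE, adjusted p = 0.017), and was lost without mouse 394 or 405.

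Other immune lists held 0 or 1 call, beside 1.35% of all tested genes called higher and 0.287% lower. The single calls given next were 4%, 3.33%, 5.26% and 3.03% of their lists. Calls were 1 of 25 cytokine genes (Csf1), 1 of 30 Toll-like receptor and inflammasome genes (Cd180, log2FC 1.20 ± 0.24), 1 of 19 complement genes (Itgax) and 1 of 33 immediate early genes (Maff, log2FC 2.10 ± 0.33), with medians of 0.31, 0.31, 0.17 and 0.18. Antigen presentation gave 0 calls in 22 MHC class I genes (median 0.39) and 0 in 13 MHC class II genes (median 0.08) with edgeR. At an unadjusted p under 0.05 there were 13 and 2, beside 2646 of 17446 tested genes. DESeq2 called 6 and 1 higher, beside 607 over all genes. Cd180, a Toll-like receptor relative, lost its call on leaving out any 1 of mice 244, 394, 405, 224, 225, 236, 243 and 245. Of 30 phagocytosis genes 2 (6.67%) were called higher, Axl and Clec7a, and 1 (3.33%) lower, Cd36. Of 29 motility genes 2 (6.90%) were called higher, Baiap2l2 and the actin-capping protein Capg (log2FC 1.33 ± 0.24).

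Glycolysis and hypoxia genes held 4 rises in 30 members (13.3%, beside 1.35% of all tested genes; median 0.31). Hif1a, the oxygen-regulated transcription factor, measured 272, 173, 364 and 293 CPM against 72.7 to 93.2 CPM with a median of 85.4 (log2FC 1.70 ± 0.16 SE, adjusted p = 0.000388). Egln3, a prolyl hydroxylase that marks HIF1A for degradation, measured 26.4, 19.4, 39.6 and 35 CPM against 1.82 to 3.98 CPM with a median of 2.64 (log2FC 3.35 ± 0.25 SE, adjusted p = 4.52e-05). Both were without overlap and kept in every refit. Slc16a3, which exports lactate, and Pkm, the pyruvate kinase of glycolysis, had log2FC of 1.15 ± 0.24 and 0.63 ± 0.13. They lost their calls without mouse 244, 394, 405, 224, 225, 243 or 245 among others, which left 2 calls, while 7 were called without mouse 335. The 78 nuclear genes of the respiratory chain had 0 calls (median -0.07) and the 13 genes of mitochondrial DNA had 0 (median -0.42), with 0 at an unadjusted p under 0.05 and 0 by DESeq2 in both. The share of counts on mitochondrial DNA varied within both groups, from 3.45% to 19.4% in A+/Pki/ki and from 5.10% to 24.5% in A-/Pwt/wt, highest in mice 335 and 223.

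Of 27 cell cycle genes 4 (14.8%, beside 1.35% of all tested genes) were called higher, Mki67, Top2a, Cdk1 and Ccnb2, with 24 members above 0 and a median of 0.64. Mki67, a marker of cycling cells, measured 16.5, 17.5, 18.6 and 29.5 CPM against 5.56 to 9.68 CPM with a median of 8.2 (log2FC 1.43 ± 0.20 SE, adjusted p = 0.00443) and was kept in every refit. Top2a, a topoisomerase of replicating DNA, measured 15.9, 17.7, 20.7 and 28.4 CPM against 2.9 to 10.4 CPM with a median of 7.33 (log2FC 1.49 ± 0.29 SE, adjusted p = 0.0296). All 4 A+/Pki/ki libraries lay above all A-/Pwt/wt libraries for both. Without mouse 394 or 405 Mki67 was the 1 call of the list, and without mouse 244 there were 2 calls. Top2a was lost without mouse 244, 394, 405, 224, 225 or 243.

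Genes of resting microglia did not pass in either direction. None of the 24 homeostatic genes was called (median 0.20, 19 above 0), and the same held for 15 purinergic receptors and ectonucleotidases (median -0.25), 26 TGF-beta signalling genes (0.05) and 17 iron genes (0.07), all by edgeR. In the same order, 1 of 24, 3 of 15, 7 of 26 and 6 of 17 members had an unadjusted p under 0.05, beside 2646 of 17446 tested genes. DESeq2 called 1, 1, 2 and 1 lower and 0 higher, beside 349 lower and 607 higher over all genes. Csf1r, the CSF1 receptor, measured 5928, 3608, 6195 and 6194 CPM against 3493 to 6444 CPM with a median of 5334, and P2ry12, an ADP receptor of resting microglia, 1512, 947, 1793 and 1718 CPM against 999 to 1424 CPM with a median of 1346. Both overlapped between groups (adjusted p = 0.884 and 0.584). C1qa, a complement subunit made by microglia, had a log2FC of 0.17 ± 0.23. Of the remaining lists, 26 lineage transcription factors had 1 call (Hif1a), 21 integrins 1 higher (Itgax) and 1 lower (Itga7, log2FC -1.09 ± 0.22), 31 Alzheimer risk genes 1 higher (Apoe) and 1 lower (Ms4a4a), 86 ribosomal protein genes 1 (Rps3a2) and 75 potassium channel subunits 1 (Kcnj2, an inward rectifier, log2FC 2.14 ± 0.32). In that order, 3.85%, 4.76%, 3.23%, 1.16% and 1.33% of members were called higher, beside 1.35% of all tested genes. The lower calls were 4.76% of integrins and 3.23% of Alzheimer risk genes, beside 0.287%. Medians of these lists were 0.39, -0.06, 0.25, 0.22 and -0.77, and those of the phagocytosis, motility and cholesterol synthesis lists 0.28, 0.22 and 0.07. Fatty acid metabolism had a median of -0.14. Fn1, a matrix protein, did not pass (log2FC -0.39 ± 0.34, adjusted p = 0.588).

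**Figure D4:**
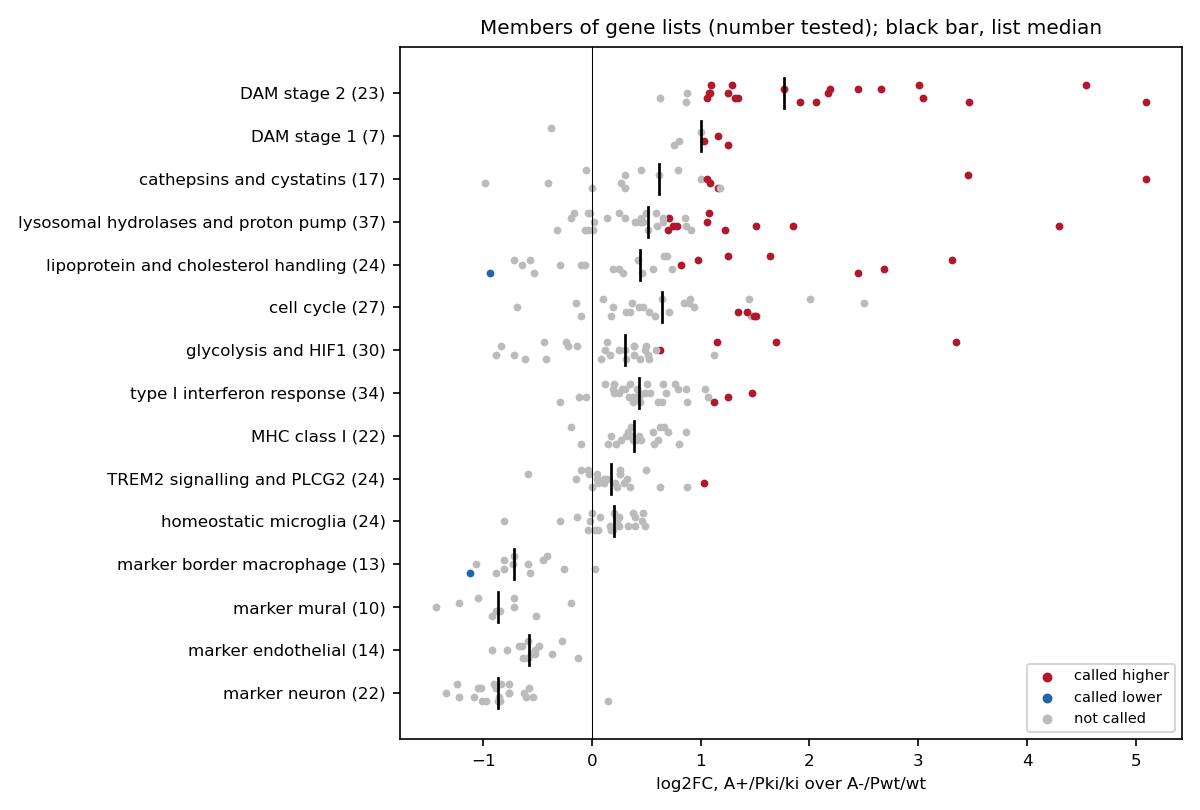
Log2FC of A+/Pki/ki over A-/Pwt/wt (x axis) for each tested member of gene lists (rows, number tested in brackets), coloured by call, with a black bar at the list median. The stage 2 DAM row is shifted furthest, with 20 of 23 members called higher and a median of 1.77, and the homeostatic row has no call and a median of 0.20.

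The falls were smaller and fewer than the rises. They also rested most on single libraries: there were 0 without mouse 405, 4 without mouse 394 or 244, 391 without mouse 335, 10 without mouse 243, 12 without 224, 13 without 225, 19 without 242, 28 without 236 and 30 without 245. Of the falls named by the rule all lost their calls without mouse 405, and without mouse 394 all but Ccn1 did. Mgl2, a galactose-binding C-type lectin of macrophages and dendritic cells, measured 7.8, 9.01, 3.11 and 5.25 CPM in A+/Pki/ki and 10.3 to 27 CPM with a median of 20.3 in A-/Pwt/wt (log2FC -1.67 ± 0.34 SE, adjusted p = 0.0328). Its relative Clec10a measured 9.34, 11.1, 5.24 and 5.81 CPM against 12 to 34.9 CPM with a median of 21.6 (log2FC -1.48 ± 0.29 SE, adjusted p = 0.0296), and Cd209g, another C-type lectin, had a log2FC of -1.31 ± 0.23. Of the 13 border macrophage markers 1 was called lower (7.69%, beside 0.287% of all tested genes), and their median was -0.72. It was Cbr2, a carbonyl reductase (log2FC -1.12 ± 0.23 SE, adjusted p = 0.034). DESeq2 called 6 of the 13 lower, beside 349 called lower over all genes. The list summed to 706 to 1005 CPM in A+/Pki/ki, 824 to 1896 CPM in A-/Pwt/wt and 681 to 816 CPM in A+/Pwt/wt, with no defining marker at 0 in the group means. The part of these cells in the falls was not tested.

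Ccn1, a matrix protein induced in stretched and YAP-active cells, measured 8.86, 10.6, 20.2 and 8.43 CPM against 27.4 to 37.8 CPM with a median of 32.7 (log2FC -1.43 ± 0.23 SE, adjusted p = 0.0113). Its call was lost without mouse 405 and without mice 236 and 245 together. Its relative Ccn2 had a log2FC of -1.29 ± 0.23, Col1a2 (a type I collagen chain) of -1.26 ± 0.23, and Des (desmin, a filament of muscle cells and pericytes) of -1.10 ± 0.19. Col1a2 measured 9.78, 11.3, 5.55 and 4.91 CPM against 16.4 to 20.7 CPM with a median of 19.1, without overlap. Jph2, which couples membranes of muscle cells, Gja4, an endothelial connexin, Rbpms2, an RNA-binding protein of smooth muscle, and Obsl1, a cytoskeletal linker, had log2FC of -1.49, -1.15, -1.09 and -1.12. Nfatc4, Cyp2e1, Slc16a11 and Ms4a4a completed the 15 largest falls with levels that did not overlap, at -1.14, -1.38, -1.26 and -1.13.

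Markers of the vessel wall had negative medians and did not pass with edgeR. The 10 mural markers had 0 calls and a median of -0.87, with sums of 350.5 to 698 CPM in A+/Pki/ki, 622 to 1082 CPM in A-/Pwt/wt and 513 to 1003 CPM in A+/Pwt/wt. At an unadjusted p under 0.05 there were 8 of the 10, beside 2646 of 17446 tested genes. DESeq2 called 6 lower, beside 349 over all genes. The 14 endothelial markers had 0 calls by either tool, 6 members with an unadjusted p under 0.05, and a median of -0.57, with sums of 1512 to 3392, 2539 to 3702 and 2421 to 4338 CPM in the same order. No vascular marker was at 0 in a group mean, and the part of vascular RNA in the falls was not tested. Neuron, astrocyte, oligodendrocyte and OPC markers had 0 calls and medians of -0.86, -0.74, -0.51 and -0.74. Choroid plexus markers had a median of -0.88, monocyte markers of 0.27 and T, B and NK cell markers of -0.39, with 0 calls in each. Of these 7 lists, astrocytes had 2 members at an unadjusted p under 0.05, choroid plexus and T, B and NK cells 1 each and the others 0, and DESeq2 called 0. The 13 neutrophil markers had the highest median of the marker lists, with a value of 1.41, 0 calls by either tool and 2 members at an unadjusted p under 0.05. They summed to 857 to 2479 CPM in A+/Pki/ki, 345 to 1103 CPM in A-/Pwt/wt and 449 to 816 CPM in A+/Pwt/wt. Their mean log2 CPM ran from 1.88 in mouse 394 to 6.56 in mouse 335 within A+/Pki/ki. That span held the whole A-/Pwt/wt range of 2.54 to 5.29, so the list was not higher in every A+/Pki/ki mouse.

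**Figure D5:**
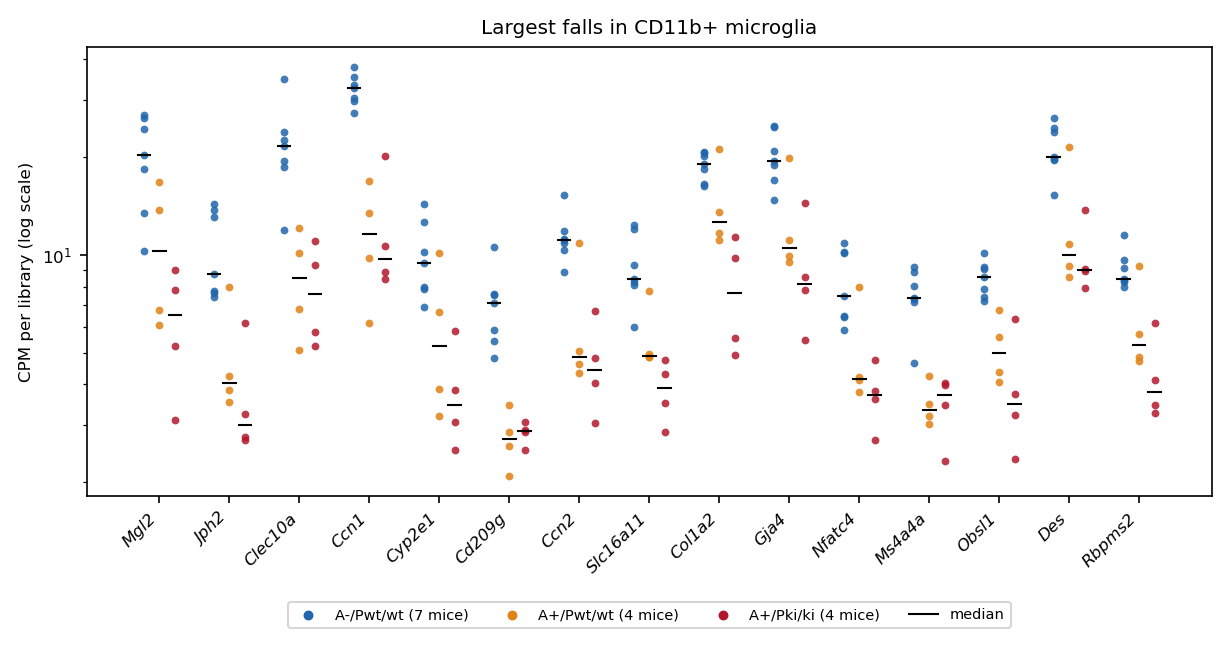
CPM per library (y axis, log scale) of the 15 largest falls in A+/Pki/ki, with 1 point per mouse and a bar at the group median, for the same 3 groups of female CD11b+ libraries. A+/Pki/ki points lie below A-/Pwt/wt points, for Mgl2 at 3.11 to 9.01 CPM against 10.3 to 27.0 CPM, and some A+/Pwt/wt points reach the A-/Pwt/wt range.

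In the transgenic mice with wild-type Plcg2, many of the largest rises lay near the A+/Pki/ki levels, and the falls varied. A+/Pki/ki against A+/Pwt/wt, 4 libraries each with the tag b2, gave 0 calls in 17039 genes tested with edgeR (0%). The smallest adjusted p was 0.853, and 575 genes had an unadjusted p under 0.05. Of the 286 genes called in the main comparison, 27 were among those 575, a larger share than the 575 of 17039 over all genes. DESeq2 called 7 genes, and leaving out A+/Pwt/wt mouse 375 gave 1 edgeR call, the predicted gene Gm12751 (log2FC -5.18). This comparison shares the A+/Pki/ki libraries with the main comparison, so the values below are placed side by side only. Cst7 measured 533, 782, 607 and 804 CPM in A+/Pwt/wt mice 331, 367, 375 and 380, a difference of 0.03 ± 0.21 on the log2 scale from A+/Pki/ki (unadjusted p = 0.896 by edgeR). Baiap2l2 measured 38.8, 60.4, 41.1 and 76.3 CPM there, Gpnmb 105, 109.7, 396 and 480.0 CPM and Apoe 6768, 6658, 6807 and 8153 CPM. In all 4 genes, which are rises, the levels of the transgenic groups overlapped. Among the falls, the difference was -0.84 ± 0.44 for Mgl2, -0.71 ± 0.42 for Cyp2e1 and -0.60 ± 0.25 for Slc16a11. It was -0.01 ± 0.38 for Ccn1 and -0.01 ± 0.21 for Cd209g. The cell cycle list had a mean log2 CPM of 3.15 to 3.61 in A+/Pki/ki and 2.89 to 3.12 in A+/Pwt/wt, without overlap.

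Some named genes had larger differences in the direct comparison, none of which passed the adjustment. Csf1 measured 163, 270.4, 274 and 363 CPM in A+/Pwt/wt (difference 0.63 ± 0.41, unadjusted p = 0.159 by edgeR). Mki67 measured 11, 11.4, 11.9 and 15.9 CPM, below each A+/Pki/ki library (difference 0.65 ± 0.21, unadjusted p = 0.014), and Top2a 11.8, 10.3, 14.5 and 16.9 CPM (difference 0.56 ± 0.22, unadjusted p = 0.0319). Arsb measured 218, 365, 338 and 371 CPM (difference 1.43 ± 0.54, unadjusted p = 0.0279), and Col1a2 21.2, 13.6, 11.1 and 11.7 CPM (difference -0.92 ± 0.34, unadjusted p = 0.0257). Ccl3 measured 254, 346, 362 and 424 CPM, with a difference of 0.64 ± 0.26 (unadjusted p = 0.0375). With 4 mice a group, a p that misses the threshold does not show that the levels were equal.

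Around Plcg2 on chromosome 8, where the knock-in was made, 78 genes within 5 Mb were tested and 1 was called (Galns, a lysosomal sulfatase, 1.28%), beside 1.64% of all genes.

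In whole cortex of other mice the called rises were often higher as well. Cortex levels were scaled separately and had 1 A-/Pwt/wt library, so they were not tested. Of the 236 called rises 221 were measured in cortex, and 123 of them (55.7%) lay above the A-/Pwt/wt library in all 4 A+/Pki/ki libraries, beside 23.8% of all genes there. Another 35 (15.8%) lay below in all 4, beside 24.5% of all genes. Of 48 called falls measured, 16 (33.3%) lay below in all 4 and 5 (10.4%) above. Cst7 was at 0.311 CPM in the A-/Pwt/wt cortex and at 34.5 to 44.7 CPM in A+/Pki/ki cortex. Clec7a was at 0.168 and 12.6 to 17.5 CPM, Itgax at 0.407 and 13.2 to 20.5 CPM, and Ccl6 at 0.767 and 12.4 to 16.7 CPM. Levels of Trem2 (16 against 72.1 to 91.9 CPM) and of Tyrobp (10.2 against 46.8 to 60.4 CPM) were also above, as was the homeostatic gene Csf1r (99.6 against 163 to 175 CPM), which was not called in isolated cells. Apoe, which astrocytes express too, was at 1559 against 1869 to 2143 CPM. Fabp5, Hif1a and Pkm, expressed by other brain cells too, had A-/Pwt/wt cortex levels of 70.3, 68.9 and 1424 CPM, against 67.5 to 72.9, 69.6 to 82.9 and 1352 to 1434 CPM.

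Pseudogenes and predicted genes behaved unevenly between mice. By biotype, 1.42% of 14643 protein-coding genes and 2.36% of 679 pseudogenes were called higher. Gm15772, the largest predicted rise by the rule, was at 4.08, 5.5, 229 and 229 CPM in A+/Pki/ki mice 244, 335, 394 and 405, 0.714 to 4.05 CPM with a median of 2.31 in A-/Pwt/wt and 167, 5.48, 119 and 119.7 CPM in A+/Pwt/wt (log2FC 5.51 ± 0.97 SE, adjusted p = 0.0165), and its call was lost without mouse 394 or 405. Atp6v0c-ps2 was at 1.36, 26.3, 69.2 and 32.9 CPM, 0.238 to 1.09 CPM with a median of 0.899 and 20.7, 1.7, 0.55 and 28.1 CPM in the same order (log2FC 5.43 ± 0.72 SE, adjusted p = 0.00306). Rps2-ps10, picked after its values were seen, was at 0.702, 216, 178 and 79.1 CPM, 0.278 to 1.13 CPM with a median of 0.812 and 183, 1.06, 1.32 and 144 CPM (log2FC 7.37 ± 0.96 SE, adjusted p = 0.00287). In each of the 3, both transgenic groups held mice at or close to the A-/Pwt/wt level and mice far above it. Gm15772 and Atp6v0c-ps2 are annotated as processed pseudogenes and Rps2-ps10 as a transcribed processed pseudogene, whose reads can be split with near-identical copies, so their counts are uncertain. The largest called fall of any gene was Gm24270, also picked after its values were seen, with a log2FC of -4.03 ± 0.85 (adjusted p = 0.0381), and its A-/Pwt/wt values of mean 18.4 ± 13.4 CPM (SD, n = 7) overlapped those of A+/Pki/ki. It was called in 10 of the 20 refits, and lost its call on leaving out any 1 of mice 244, 394, 405, 225, 236, 242, 243 and 245.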

How the data were processed

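RNA was sequenced from CD11b+ brain cells and cortex after oligo(dT) enrichment. Per the labels and the study's methods, the authors trimmed reads with Trimmomatic (0.39), mapped them with STAR (2.7.9a) to GRCm38 and deposited raw gene counts of uniquely mapped reads from featureCounts (2.12.0), ignoring strand. Reads of genes on overlapping exons, such as Ctsb with Fdft1, Ctsz with Nelfcd, Cd180 with Mast4, Itga7 with Mettl7b, Csf1r with Hmgxb3, P2ry12 with Med12l and Ptchd1 with Gm15156, therefore cannot be told apart. The count tables hold 55401 genes, and the cortex columns of A+/Pwt/wt mice were not used here. The authors also deposited variance-stabilized values (DESeq2, a log2-like scale), used here with limma as an alternative.

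Counts were tested with edgeR 4.0.16 (R 4.3.3; TMM, two-sided quasi-likelihood F test, Benjamini-Hochberg adjustment, false discovery rate 0.05) on the 4 A+/Pki/ki and 7 A-/Pwt/wt libraries, keeping genes that reached 10 counts in 3 or more libraries. Printed CPM use TMM factors over the 15 female CD11b+ libraries, and cortex CPM those over 5 cortex libraries. Log2FC and SE come from the fit.

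The genes to name were set by rule: Plcg2, transgene and sex genes, Apoe, Trem2 and Fn1, the 15 largest called rises and falls averaging 5 CPM or more, whose groups did not overlap, predicted genes apart (3 each), and per list up to 4 called and 2 most abundant members. Part of these are printed, and some genes are not reported here. Members and the 44 lists (33 pathway, 11 marker) were chosen with earlier results of these data known. Lists are given as counts and medians, with no test.

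Alternatives were DESeq2 1.42.0, limma 3.58.1, other size factors and filters, all 15 libraries, a neuron score covariate and leaving out libraries. In simulated data with 200 changed genes, edgeR recovered 17.5% at a log2FC of 1 (17058 genes) and 59.5% at 2 (17046 genes). It called 2 and 7 unchanged genes. DESeq2 recovered 48.5% and 76%, with 42 and 50 unchanged genes called. Within-group library pairs differed by at least 19.7 in chi-square per degree of freedom, so none was a duplicate.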

Additional observations from a re-analysis of the deposited data

Results flagged for a closer look

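The named genes, the share of genes at 0, the mitochondrial share, the neuron and DAM stage 2 scores and total counts gave 196 groups of libraries. Of these, 15 held a library set apart from the rest by a gap that chance gives in about 1 in 20 groups. Some of the 15 can therefore be chance. Of the genes concerned, 11 were lowest or highest in the A-/Pwt/wt library of mouse 223, which also had the highest neuron score. In that library App was highest, at 975 CPM against 617 to 679 CPM in the other A-/Pwt/wt mice. It was lowest for Cd200r4 (0.773 against 1.54 to 2.15 CPM), Ctsb (1332 against 2138 to 2669 CPM), Clec7a (17.0 against 39.9 to 66.0 CPM) and Ctsz (368 against 729 to 961 CPM). The same held for Gusb (104 against 172 to 217 CPM), Ccl6 (39.8 against 70.0 to 105 CPM), Capg (20.0 against 36.0 to 56.1 CPM) and Ms4a4a (4.64 against 7.19 to 9.21 CPM). Ctsd (1737 against 3599 to 4796 CPM) and C1qa (1635 against 2957 to 4055 CPM) completed the set. Without mouse 223 there were 360 calls.

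In the A-/Pwt/wt library of mouse 245 Dkk2 was at 0 CPM, against 1.15 to 2.31 CPM, and 7.57% of tested genes were at a count of 0, against 0.298% to 0.843% in the other A-/Pwt/wt libraries. In A+/Pki/ki mouse 335 Cd180 was lowest, at 147 CPM against 283 to 304 CPM, and Csf1r at 3608 CPM against 5928 to 6195 CPM.

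In 4 named genes the called direction in CD11b+ cells and the order in cortex were opposite, which was not tested. Nceh1 had a log2FC of 1.64 in CD11b+ cells, and in cortex was at 154 CPM in the A-/Pwt/wt library against a median of 146 CPM in A+/Pki/ki. Cadm1 had a log2FC of 1.25 and was at 213 CPM against 199 CPM in cortex. Cd36 had a log2FC of -0.93 and was at 2.01 CPM against 3.41 CPM in cortex. Itga7 had a log2FC of -1.09 and was at 8.70 CPM against 10.6 CPM.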

How the results depend on the processing

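The 286 calls (236 higher, 50 lower) became 956 (607 and 349) with DESeq2, 510 (395 and 115) with all 15 libraries fitted together, 602 (363 and 239) with the neuron score as covariate, 1182 (720 and 462) without the 3 libraries of highest neuron score, and 92 (89 and 3) without A-/Pwt/wt mice 236 and 245. The last 2 alternatives were chosen after seeing the data. Falls numbered 24 with no low-count filter, 80 with limma and 32 above an absolute log2FC of 1. Rises were 82.5% of calls, and 63.5% with DESeq2, 60.3% with the covariate, 60.9% without the 3 libraries and 64.4% without mouse 335. Leaving out 1 library gave 57 to 1097 calls, 57 to 706 rises and 0 to 391 falls. DESeq2 size factors and filterByExpr kept each of the 3 counts within 1.5 times.

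List counts of rises, as DESeq2, without the 3 libraries of highest neuron score, without mice 236 and 245, and range over single libraries left out, were 6, 6, 1 and 0 to 5 for DAM stage 1 (5 with all 15 libraries), 22, 24, 2 and 1 to 20 for lysosomal hydrolases (6 above an absolute log2FC of 1), 6, 6, 0 and 0 to 10 for interferon genes (5 with all 15 libraries), and 7, 13, 2 and 2 to 7 for glycolysis and HIF1 (11 with the covariate). Cathepsins gave 9, 2 and 2 to 8 in the last 3. DAM stage 2 gave 13 without mice 236 and 245 and 13 to 23 over single libraries, and lipoprotein genes 4 and 3 to 9. With DESeq2 DAM stage 2 gave 23. Cell cycle gave 8 with DESeq2 and 1 to 5. The share of called falls below in all 4 cortex libraries, 33.3%, was 22.1% with the covariate, 19.2% without the 3 libraries, 50% without mice 236 and 245 and 21.9 to 50% over single libraries. The direct comparison had 0 calls, 7 with DESeq2 and 0 to 1 over single libraries. No called gene that the text names changed direction under any of the 20 alternative fits. Of those not called, with the covariate Plcg2 reversed to -0.038, App to 0.18, Csf1r to -0.18 and P2ry12 to -0.0012. App was 0.09 and 0.11 without A+/Pki/ki mouse 394 or 405 and 0.12 without mouse 223 (range over single libraries -0.22 to 0.12), and Prnp -0.35 without mouse 335 (range -0.35 to 0.62). The cause was not tested. No paired analysis was possible because the replicate numbers are mouse numbers and the 2 groups share none. At these depths and group sizes, differences near a log2FC of 1 were often missed in simulated data.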

Other observations

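Some rises were near absent in part of the transgenic mice and high in the rest. For Rps2-ps10, A+/Pki/ki mouse 244 was at 0.702 CPM and mouse 335 at 216 CPM, and among the 4 A+/Pki/ki cortex libraries, from other mice, mouse 203 was at 99.2 CPM with the A-/Pwt/wt cortex at 0.599 CPM. For Atp6v0c-ps2 the same cortex library was at 65.6 CPM with the A-/Pwt/wt cortex at 2.54 CPM. For Gm15772 it was at 50.0 CPM with the A-/Pwt/wt cortex at 1.15 CPM. The protein-coding Arsb and Cd300lf were uneven too: in A+/Pki/ki Arsb ranged from 278 to 1782 CPM and Cd300lf from 17.6 to 189 CPM, and in A+/Pwt/wt from 218 to 371 and 23 to 235 CPM. These genes were picked after their values were seen.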
